A study of Homo sapiens with 8 samples.

Results

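Motile cilium genes are described here in single cells of neural cultures. The cultures were grown from H1, a long-established line of human embryonic stem cells. The members are 9 genes named singly (FOXJ1, PIFO, RSPH1, RSPH4A, DTHD1, VWA3A, TPPP3, CCDC39 and CCDC40), all 13 genes of the deposited list whose name is DNAH and a number, and all 35 whose name is CFAP and a number. These are 57 of 60286 genes. The data hold 43693 cells in 8 sublibraries of 1 barcoded pool, with a median of 12776 expected counts per cell. GEO's labels name dopamine, cocaine, morphine and untreated cultures jointly for every sublibrary, so the groups used here come from the culture tag in each cell's name.

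The 46 tags fall into 9 arrangements, whose letters the labels do not define. Arrangement 2DCocu has 4 tags each of AcCoc, AcMor and Vehic, and 3DFusi has 4 of AcCoc and 3 each of AcMor and Vehic. Arrangements 2DMono and 3DMono have 2 tags each of AcDop, AcMor and Vehic. The tags 2DProto2Fjo, 2DProto3Wu and 2DProto4Nic come with 2 each, and 3DProto1For and 3DProto2Xia with 3 each, without a treatment. No dose or time is given. All cells come from the same line, organoids were pooled for dissociation per the labels, and whether numbered tags are separate cultures is not stated, so p-values measure the spread between tags only. A tag holds 317 to 1959 cells and 3624668 to 58777178 counts. Of 41192 barcodes, 2393 occur in more than 1 sublibrary. Levels are given in CPM, a gene's counts per 1000000 counts of the cells named, and a CPM is compared between groups for the same gene, never between genes.

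Motile cilia beat because dynein arms slide the doublet microtubules of their axoneme against each other. Outer dynein arms drive the beat and inner arms shape it, radial spokes and the central pair of microtubules control it, and the transcription factor FOXJ1, working with RFX factors, switches on the genes for these parts. In the nervous system such cilia are known on ependymal cells and on the choroid plexus, the tissue that secretes cerebrospinal fluid and expresses TTR, and FOXJ1 is also active in the floor plate, the ventral midline of the neural tube that secretes SHH.

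A cell was called SHH-positive or TTR-positive if it had an expected count of at least 0.5 of that gene. By this rule 1553 cells (3.55%, exact binomial 95% interval 3.38 to 3.73, counting error only) were SHH-positive, 2949 (6.75%) TTR-positive, 125 positive for both and 39066 other. These classes differ in depth: the median was 18369 counts in SHH-positive, 18264 in TTR-positive and 12313 in other cells. They also differ in called doublets, at 16.5%, 21.9% and 9.35%. Of the SHH-positive cells, 1041 had a count below 2. The floor plate marker list (9 genes, SHH among them) summed to 1006 CPM in SHH-positive against 312 in other cells, with FOXA1 at 19.0 against 2.17, FOXA2 at 2.17 against 0.123 and FERD3L at 0.217 against 0.00519. The choroid plexus list (10 genes, TTR among them) summed to 1861 CPM in TTR-positive against 116 in other cells. Most of this was HTR2C, at 1510 against 65.6. FOLR1 (0.969) and KCNJ13 (0.912) stood near 1 CPM in TTR-positive cells, and their level in other cells is not given here. The class names therefore stand for a count of SHH or TTR and not for a cell type.

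The summed level of the 57 members was 2233 CPM in SHH-positive, 2072 in TTR-positive and 1284 in other cells, but the arrangements differed. In SHH-positive cells the sum stood at 3711 CPM in 3DFusi and 2383 in 2DCocu, and between 988 and 1685 in the other 7 arrangements. In 2DMono, 2DProto2Fjo, 2DProto3Wu and 2DProto4Nic, SHH-positive cells stood below other cells. TTR-positive cells stood at 2443 CPM in 3DMono, 2729 in 2DProto4Nic, 2566 in 3DProto1For and 3699 in 3DProto2Xia, and at 1711 in 3DFusi. In 2DMono TTR-positive and other cells were near equal, at 1109 and 1101 CPM, and in 2DProto3Wu they stood at 1269 and 1399.

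**Figure D1:**
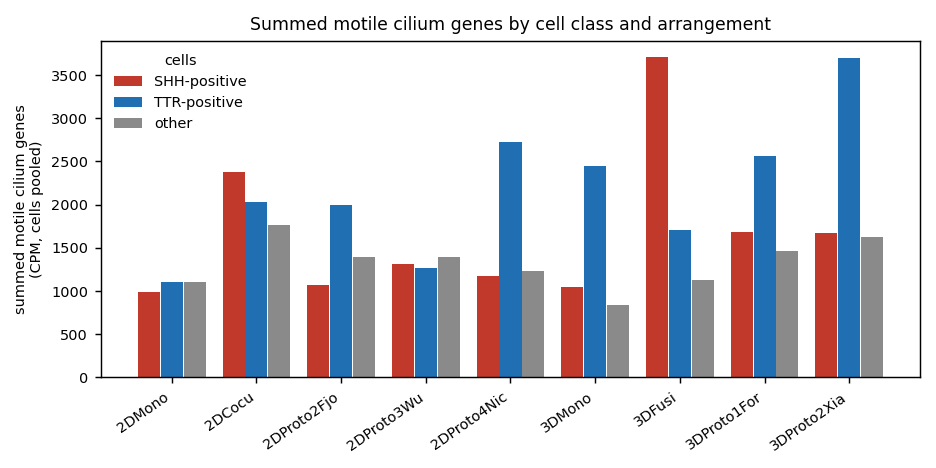
Summed level of the 57 motile cilium genes (vertical axis, CPM of the cells pooled over tags) in SHH-positive, TTR-positive and other cells of each arrangement, with no error bar because cells are pooled. The SHH-positive bar stands highest in 3DFusi (3711 CPM against 1132 in other cells), and TTR-positive bars stand above other cells except in 2DProto3Wu (1269 against 1399 CPM) and, nearly equal, 2DMono.

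SHH-positive cells were compared with other cells of the same tag in 27 tags that held at least 20 cells of each class, of which 9 were 3DFusi and 7 were 2DCocu. Of 53 members tested 39 were higher and 0 lower in SHH-positive cells (edgeR quasi-likelihood test with the tag as a block, Benjamini-Hochberg adjusted over 18468 genes). Over all genes 14.9% passed, 5.77% higher and 9.09% lower. The median log2 difference was 0.85 over members and -0.03 over all genes tested. This rested on the 3DFusi tags: with the 18 other tags alone 2 of 52 members were higher and 1 lower, against 1.35% of all genes higher, and the median was 0.19. The 2 were DNAH2 (0.62) and DNAH9 (0.64), and DNAH11 was lower (-0.42). The fits split by arrangement were chosen after seeing the data.

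Within the 9 tags of 3DFusi, 43 of 54 members tested were higher in SHH-positive cells and 0 lower, where 9.47% of genes were higher. The median difference was 1.75 over members and -0.03 over all genes. FOXJ1 had a lowest, median and highest tag value of 3.51, 8.50 and 48.7 CPM in SHH-positive cells and 0.457, 2.06 and 3.53 in other cells. It was higher in 9 of 9 tags, and the ranges met only at their edge (log2 difference 2.52 ± 0.26 SE, adjusted p 2.6e-06, edgeR). DTHD1, a gene with a death domain, showed 40.9, 79.0 and 157 CPM against 1.09, 3.13 and 17.8, with no overlap between the classes (4.15 ± 0.31).

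The parts of the axoneme rose together in SHH-positive cells of 3DFusi, with exceptions. Among outer arm heavy chains, DNAH9 had tag values of 110, 206 and 293 CPM (lowest, median, highest) against 13.6, 20.6 and 31.2, and DNAH5 had 45.8, 68.0 and 127 against 11.5, 13.7 and 22.9. Neither gene overlapped between the classes. DNAH11, a further outer arm chain, rose by 1.12 ± 0.15, while DNAH8 (-0.20 ± 0.36) and DNAH17 (-0.06 ± 0.14), outer arm chains known from sperm, did not pass. Of the inner arm chains, DNAH7 (2.29), DNAH12 (2.24), DNAH2 (1.68), DNAH6 (1.45) and DNAH1 (0.40) rose. DNAH3 (0.85 ± 0.31) and DNAH10 (0.38 ± 0.25) did not pass, and neither did DNAH14 (-0.25 ± 0.11), the member with the lowest difference.

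The spoke head genes RSPH1 and RSPH4A rose by 2.99 ± 0.14 and 1.19 ± 0.16. RSPH1 stood at 11.6, 38.0 and 42.9 CPM (lowest, median and highest tag) against 1.69, 4.45 and 6.64, with no overlap. CCDC39 and CCDC40, which form the ruler that sets the spacing of arms and spokes, rose by 1.03 ± 0.10 and 1.31 ± 0.08. The 4 members of the C1d part of the central pair rose by 2.33 to 2.85, namely CFAP221, CFAP54, CFAP46 and CFAP74. CFAP46 varied most of these among tags, from 4.51 to 82.1 CPM (median 58.4) against 3.47 to 9.23 in other cells, and the lowest SHH-positive tag lay inside the range of the other cells.

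Proteins inside the doublet wall are encoded by CFAP45, CFAP52 and CFAP53, which rose by 3.16, 3.80 and 0.93, and by CFAP20, at -0.00 ± 0.10. CFAP52 stood at 27.8, 67.0 and 98.1 CPM against 1.27, 4.70 and 9.04, again without overlap. The spoke-associated CFAP61, CFAP91 and CFAP251 rose by 2.44, 1.38 and 1.55. Of the dynein assembly genes CFAP300 rose by 1.81 ± 0.32 and CFAP298 stood at 0.09 ± 0.16. CFAP97, CFAP126, CFAP161 and CFAP410 did not pass (-0.19 to 0.42). TPPP3, CFAP206 and CFAP418 had too few counts to be tested; TPPP3, a tubulin-binding protein, had a median of 4.37 CPM in SHH-positive and 1.47 in other cells and was higher in 9 of 9 tags.

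In 2DCocu the same comparison gave smaller differences. Over its 7 tags, 8 of 50 members tested were higher in SHH-positive cells and 1 lower, where 3.77% of genes were higher, and the median difference was 0.29. The 8 were CFAP46 (0.87 ± 0.15), VWA3A (0.81), DNAH9 (0.80), CFAP54 (0.68), DNAH7 (0.62), DNAH14 (0.57), DNAH6 (0.52) and CFAP43 (0.50). DNAH11 was lower, at -0.80 ± 0.15. DTHD1 stood at 0, 4.70 and 8.07 CPM (lowest, median and highest tag) against 2.32, 3.57 and 4.57, and FOXJ1 at 0.470, 2.23 and 5.94 against 1.14, 1.47 and 2.68. Both overlapped fully.

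A test of the difference itself showed that 37 of 53 members had a larger SHH-positive difference in 3DFusi than in 2DCocu and that 1, DNAH14, had a smaller one (-0.82 ± 0.15). This interaction was fitted over 16 tags, and 5.13% of 17056 genes passed it, 3.18% in the direction of 3DFusi (edgeR). The differences between the arrangements reached 3.87 ± 0.60 for DTHD1, 3.47 ± 0.26 for CFAP52, 3.09 ± 0.25 for CFAP74, 2.56 ± 0.31 for PIFO and 1.62 ± 0.47 for FOXJ1 (adjusted p 0.0418). The floor plate list summed to 1798 CPM in SHH-positive against 287 in other cells of 3DFusi and to 1538 against 507 in 2DCocu, with SHH, which the class rule uses, among its genes. Other lists differed too. In 3DFusi SHH-positive against other cells, the neuron list stood at 1213 against 1812 CPM, the mesenchymal list at 675 against 1460, cycling at 306 against 486, epithelial at 22.6 against 5.88 and skeletal muscle at 42.1 against 18.7. In 2DCocu these were 1668 against 1780, 448 against 1048, 231 against 295, 6.72 against 6.27 and 9.39 against 9.64. The part of these markers in the difference was not tested. Called doublets made up 22.7% of SHH-positive and 12.6% of other cells in 3DFusi and 12.1% and 6.95% in 2DCocu. Their part in the difference between the arrangements was not tested. The SHH-positive cells also differed in their count of SHH. A count of 5 or more was held by 68 of 440 SHH-positive cells in 3DFusi and by 4 of 305 in 2DCocu. The part of the SHH count in the difference was not tested.

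**Figure D2:**
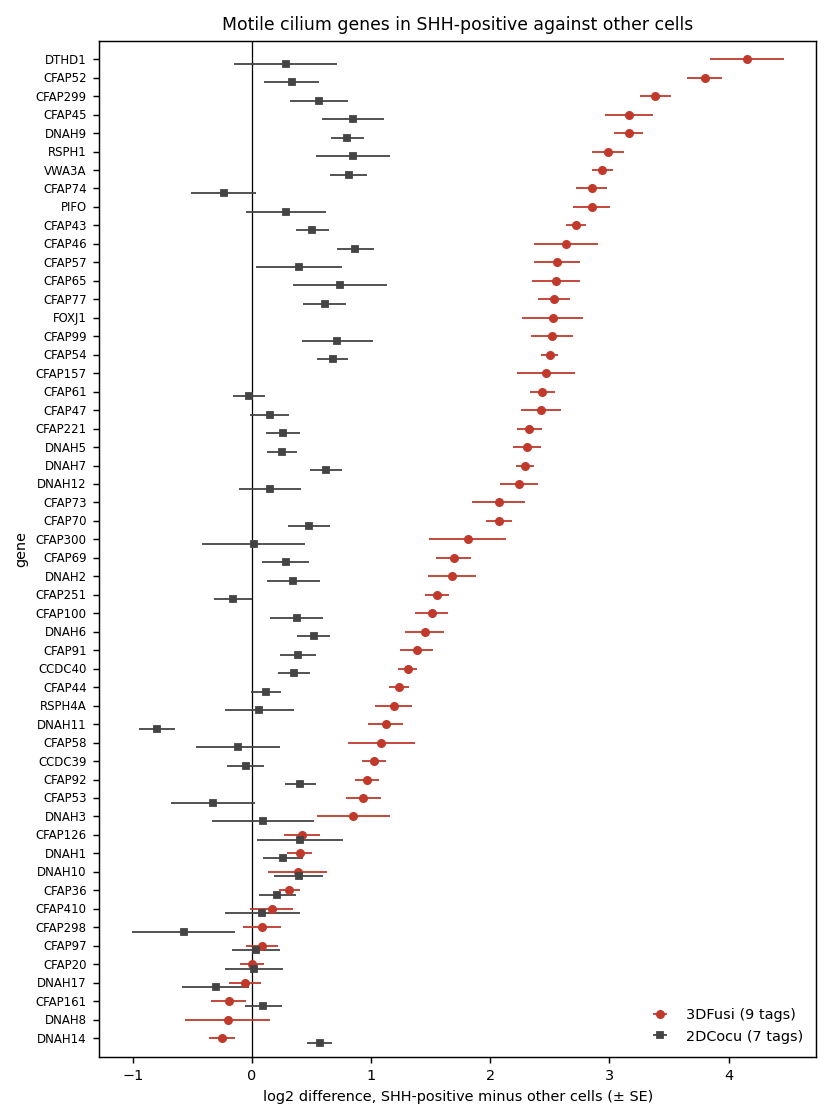
Log2 difference between SHH-positive and other cells (horizontal axis, edgeR estimate ± SE) for each motile cilium gene tested (rows), in 9 tags of 3DFusi (red circles) and 7 tags of 2DCocu (dark grey squares). DTHD1 leads in 3DFusi at 4.15, and 43 genes passed there, while 2DCocu points stay below 1, with 8 higher and 1 lower past the threshold.

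Promoters of members are shown because many hold a sequence of the kind that RFX factors bind, the X-box, whose copies near the start of a ciliary gene are a known feature of the ciliary programme. RefSeq windows of 300 bases (250 before to 50 after the start, GRCh38.p14) were found for 46 of the 57 members and 27305 genes in all. Each X-box was searched on both strands as GTNNCC followed by GNAAC. With NN between these parts it occurred in 11 members (23.9%) and in 1.61% of all genes, and with NNN in 9 (19.6%) and 2.76%. The letters GTTGCC, which are part of some matches of both forms, occurred in 22 members (47.8%) and 14.6% of genes. GTAAACA, a motif of the forkhead family to which FOXJ1 belongs, occurred in 3 (6.52%) and 4.19%. A match is a description of letters and not a site of binding.

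Sites are printed for 4 members that rose in SHH-positive cells of 3DFusi and hold the X-box with NN (DTHD1, DNAH9, CFAP46 and DNAH6) and 4 that hold the form with NNN (PIFO, CFAP45, CFAP47 and DNAH1). Each is written 5′ to 3′ on the strand of the gene, in lower case with the match, read on either strand, in capitals. The DTHD1 site is at chr4:36281555-36281607 and that of DNAH9 at chr17:11598308-11598360, both on the plus strand. The CFAP46 site is at chr10:132942571-132942614 on the minus strand and that of DNAH6 at chr2:84516402-84516454 on the plus strand. The PIFO site (RefSeq symbol CIMAP3) is at chr1:111346586-111346621 on the plus strand and that of CFAP45 at chr1:159900166-159900204 on the minus strand. The CFAP47 site is at chrX:35919588-35919641 and that of DNAH1 at chr3:52316194-52316247, both on the plus strand. All lie before the start used in the RefSeq promoter table, which for DNAH6, PIFO and DNAH1 is inside the gene's annotated span.
DTHD1: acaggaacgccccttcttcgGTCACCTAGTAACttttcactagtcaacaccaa
DNAH9: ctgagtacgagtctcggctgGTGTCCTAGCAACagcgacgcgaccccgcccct
CFAP46: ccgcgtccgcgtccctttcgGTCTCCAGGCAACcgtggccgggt
DNAH6: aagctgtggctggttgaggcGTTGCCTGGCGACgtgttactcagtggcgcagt
PIFO: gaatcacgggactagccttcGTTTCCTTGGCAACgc
CFAP45: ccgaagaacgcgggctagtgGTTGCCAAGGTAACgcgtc
CFAP47: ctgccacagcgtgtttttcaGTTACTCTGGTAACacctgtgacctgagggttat
DNAH1: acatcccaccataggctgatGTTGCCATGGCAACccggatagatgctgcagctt
The 8 sites lie 16 to 142 bases before the start used in that table. The 8 genes were picked from members that passed in SHH-positive cells of 3DFusi, so that they passed is not a result.

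TTR-positive cells differed from other cells in a set of members that was raised in several arrangements. Over 22 tags, 42 of 55 members tested were higher in TTR-positive cells and 0 lower (edgeR, tag as a block), where 26.8% of 18925 genes passed and 11.6% were higher. The median difference was 0.95 over members and -0.03 over all genes tested. The largest were CFAP74 (2.36 ± 0.24) of the central pair, CFAP45 (2.16 ± 0.25) of the doublet wall, CFAP47 (1.99), CFAP299 (1.98), CFAP157 (1.95), PIFO (1.90 ± 0.21), VWA3A (1.88), CFAP52 (1.87), CFAP43 (1.81) and CFAP70 (1.75). FOXJ1 was higher by 1.44 ± 0.18 (adjusted p 1.61e-06). Dynein chains of the outer arm (DNAH9 at 1.51 and DNAH5 at 1.02) and of the inner arm (DNAH12 at 1.54 and DNAH7 at 1.38) rose, as did DNAH14 by 0.31 ± 0.06. The spoke heads RSPH1 (1.59) and RSPH4A (0.60), the ruler genes CCDC40 (0.71) and CCDC39 (0.21) and the C1d genes CFAP46 (1.60), CFAP54 (1.60) and CFAP221 (1.18) also rose. The lowest were CFAP418 (-0.10 ± 0.17), DNAH17 (-0.04) and DNAH10 (-0.03).

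The difference was measured in both arrangements fitted alone. In the 6 tags of 3DMono 37 of 53 members were higher, where 6.46% of genes were higher, and in 7 tags of 3DFusi 28 of 56, where 3.4% were. Without 3DFusi 39 of 52 members were higher (9.03% of genes) and without 3DMono 37 of 55 (7.67%). In 3DMono FOXJ1 stood at 3.25, 4.24 and 6.00 CPM (lowest, median and highest tag) in TTR-positive and at 0.749, 0.849 and 2.45 in other cells, without overlap. CFAP74 stood at 10.7, 21.9 and 38.9 against 0.814, 1.81 and 2.60 there, also without overlap. In 3DFusi CFAP74 stood at 3.18, 30.7 and 41.3 against 0.610, 5.35 and 8.20, higher in 6 of 7 tags with ranges that overlap. No member passed a test of the difference between 3DFusi and 3DMono over 13 tags (0 of 54 adjusted, edgeR), in which 0.0108% of 18492 genes passed. At an unadjusted p under 0.05 there were 31 of the 54 members, beside 1119 of all genes, and the median member difference was -0.61, 3DFusi minus 3DMono. The interaction was not run with another tool. Marker lists differed too. In 3DMono TTR-positive against other cells, the floor plate list stood at 286 against 175 CPM and neuron at 1689 against 2118. Mesenchymal stood at 443 against 336, cycling at 409 against 508, epithelial at 12.9 against 4.03 and skeletal muscle at 51.9 against 29.0. In 3DFusi these were 377 against 287, 1566 against 1812, 1144 against 1460, 521 against 486, 7.11 against 5.88 and 14.0 against 18.7. Their part was not tested.

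DTHD1 set SHH-positive and TTR-positive cells widely apart in 3DFusi but not in every arrangement. In TTR-positive cells it differed by 0.91 ± 0.31 from other cells (adjusted p 0.0303, edgeR). Over 28 settings the difference lay between 0.46 and 1.01 and the adjusted p between 0.0183 and 0.319, and the call was lost in 10. They include no filter on low counts (0.83), DESeq2 (0.78) and the fit without replicate 3 of 3DFusi AcMor (0.62). In 3DMono it stood at 0, 1.37 and 4.32 CPM in TTR-positive cells and was higher in 3 of 6 tags. In the pooled cells of 3DFusi it stood at 77.9 CPM in SHH-positive, 4.81 in TTR-positive and 4.67 in other cells. In 3DProto2Xia it stood at 32.1, 27.9 and 37.1 CPM and in 3DProto1For at 17.7, 11.4 and 11.0. In 2DProto3Wu, where 15.7% of cells were SHH-positive, it stood at 0.201 and 0.363 CPM in SHH-positive and other cells.

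SHH-positive and TTR-positive cells of the same tag were compared directly in 14 tags. Of 43 members tested 0 were higher in SHH-positive cells and 1, DNAH14, was lower (-0.39 ± 0.10, adjusted p 0.0386, edgeR), where 2.28% of 12310 genes passed, 1.53% lower. At an unadjusted p under 0.05 there were 6 members, beside 1696 genes. FOXJ1 and DTHD1 were among 14 members that were not tested in this fit because of the filter on low counts. Other settings gave other counts. With both classes called from a count of 2, which also cut the 14 tags to 3, all of 3DFusi, 20 of 47 members were higher in SHH-positive cells and 0 lower, where 5.76% of 10375 genes passed. The class limit and the choice of tags cannot be told apart in that fit. DTHD1 (5.23 ± 0.38), DNAH9 (2.65 ± 0.35), CFAP52 (2.52 ± 0.26), CFAP299 (2.35 ± 0.44) and RSPH1 (1.96 ± 0.39) led. Without a filter on low counts 8 members were higher, DTHD1 by 2.81 ± 0.22, and 2 lower, where 2.74% of 40811 genes passed. Errors in that fit were unlike those of the filtered fit. CFAP52 went from 1.11 ± 0.55 to 1.04 ± 0.18 and DNAH9 from 0.91 ± 0.52 to 0.86 ± 0.13, while errors of some other members grew. The calls without a filter may therefore not measure the spread between tags as the filtered fit does. Leaving out single tags gave 0 to 2 calls, with 0 without 6 of the 7 tags of 3DFusi, 3DMono AcMor tag 1 or 3DProto2Xia tag 2, each left out alone. The share of all genes called with single tags left out is not given here. Against other cells, the limit of 2 left 9 tags for SHH, with 38 of 53 members higher (4.56% of genes), and 11 for TTR, with 42 of 52 higher (16.8%). Differences of named members were larger there. For SHH, FOXJ1 went from 1.37 to 2.64 and DTHD1 from 2.45 to 4.37. For TTR, FOXJ1 went from 1.44 to 2.24, CFAP46 from 1.60 to 2.67 and CFAP74 from 2.36 to 3.37. The tags changed with the limit in these fits too, so the limit and the tags cannot be told apart. Differences of FOXJ1 and DTHD1 in 3DFusi tags alone at the limit of 0.5 are given above. No fit of SHH-positive against other cells was run in 3DFusi alone at the limit of 2. In pooled cells of 3DFusi, FOXJ1 stood at 2.75 CPM at an SHH count from 0.5 to under 2. It stood at 14.7 from 2 to under 5 and at 20.2 with 5 or more.

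The summed level was higher in cells with a larger count of SHH, and of TTR from a count of 2. The members summed to 1284 CPM in cells with neither, to 1589 in 1041 cells with an SHH count from 0.5 to under 2, to 2666 in 427 cells from 2 to under 5 and to 5252 in 85 cells with 5 or more. By TTR the sum was 1282 CPM in 1919 cells below 2, 2624 in 822 cells from 2 to under 20 and 3754 in 208 cells with 20 or more. FOXJ1 stood at 1.52 CPM with neither, at 17.5 with an SHH count of 5 or more and at 8.49 with a TTR count of 20 or more. The value of 17.5 came from 3DFusi, with 20.2 CPM in 68 cells, while 17 cells of other arrangements stood at 1.87, against 1.47 with neither there. Other members were not flat in these 17 cells, where the summed level was 3123 CPM against 1327 with neither. There DTHD1 stood at 46.2 against 4.12, DNAH9 at 136 against 29.4, RSPH1 at 34.4 against 4.41 and CFAP52 at 41.3 against 6.05. DTHD1 stood at 4.24 with neither and at 9.25, 47.4 and 96.5 across the SHH bins, and at 3.73, 1.77 and 1.15 across the TTR bins, the last from 15 counts. The TTR values of DTHD1 pool arrangements with unlike levels. In 3DFusi the highest TTR bin stood at 0.883 CPM against 4.67 in cells with neither. In all other arrangements it stood at 1.32, and other cells of the 3 that supplied it stood at 0.578 (2DProto2Fjo), 0.436 (3DMono) and 0.273 (2DProto4Nic). These bins are a description, because they were chosen after seeing the data and depth differs between them, with a median of 27785 counts per cell in the highest SHH bin and 41615 in the highest TTR bin.

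DNAH9 stood at 321, 125 and 27.5 CPM (highest SHH bin, highest TTR bin, neither), CFAP299 at 282, 102 and 18.1, and RSPH1 at 55.8, 21.3 and 4.27. CFAP70 (170, 186 and 24.9), CFAP43 (288, 267 and 37.1) and CFAP74 (52.6, 50.1 and 5.62) stood at like levels in both. DNAH14 stood at 134, 212 and 181 and CFAP161 at 18.1, 19.6 and 25.1. Of the 85 cells in the highest SHH bin 68 were from 3DFusi. At an SHH count from 2 to under 5 the members summed to 4466 CPM in 166 cells of 3DFusi and to 1753 in 261 cells of all other arrangements, and FOXJ1 to 14.7 against 2.02. The 208 cells of the highest TTR bin came from 3DFusi (83), 2DProto2Fjo (68), 3DMono (43) and 2DProto4Nic (14).

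**Figure D3:**
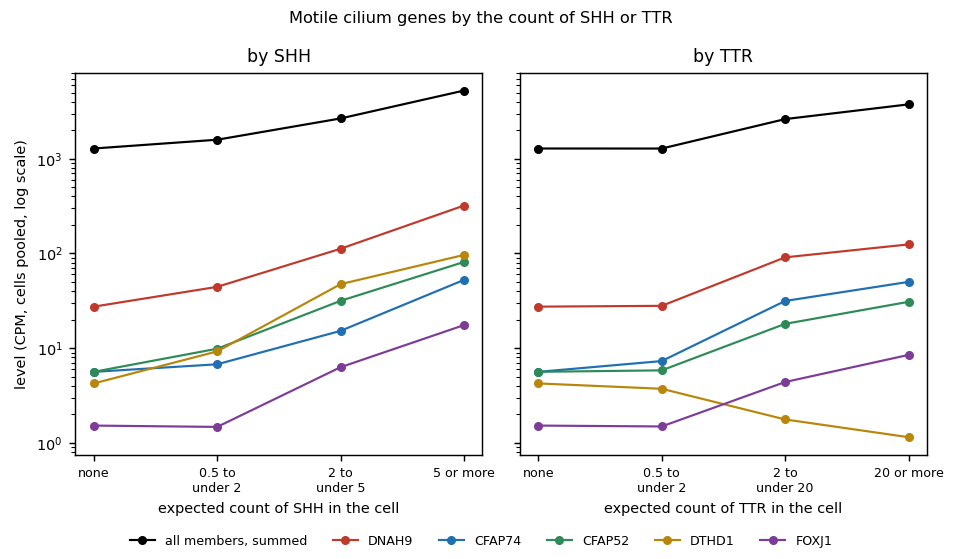
Level (vertical axis, CPM of pooled cells, log scale) of the summed members, DNAH9, CFAP74, CFAP52, DTHD1 and FOXJ1 in cells grouped by their expected count of SHH (left) or TTR (right), each starting from cells with neither. All 6 lines end higher on the left, DTHD1 from 4.24 to 96.5 CPM, and the line of DTHD1 ends lower on the right, at 1.15 CPM, where cells are pooled over arrangements with unlike levels of it.

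The share of cells with a FOXJ1 count was 8.44% in SHH-positive, 7.29% in TTR-positive and 2.49% in other cells. It was 1.47% in cells with both neuron markers STMN2 and MAPT (median 14145 counts), which serve as background. With each cell thinned to 5000 counts, which left out 21, 47 and 1292 shallower cells of the first 3 classes, the shares were 3.07%, 1.59% and 0.789%, against 0.369% in the neuron-marker cells. Of 42333 thinned cells 4259 (10.1%) held a count of 10 or more members, a limit set after seeing the data, with 1138 cells just below it and 879 just at it. Among these, 78.9% were neither SHH- nor TTR-positive, and 1739 were other cells of 2DCocu. Over all thinned cells 37774 of 42333 were neither. Cells with 10 or more members made up 8.90% of other, 25.2% of SHH-positive and 16.4% of TTR-positive cells. The share of such cells was 48.5% in SHH-positive cells of 3DFusi against 5.70% of other cells there, 38.9% against 18.2% in 2DCocu and 3.36% against 4.26% in 2DProto3Wu.

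Arrangement was compared over whole tags, in which fewer cells of a type and less RNA per cell cannot be told apart. The summed level was 1818 ± 278 CPM (SD, n = 12 tags) in 2DCocu, 1158 ± 161 (n = 6) in 2DMono, 1530 ± 359 (n = 10) in 3DFusi and 1183 ± 249 (n = 6) in 3DMono. Among the tags without a treatment it was 1574 and 1511 in 2DProto2Fjo and 2DProto4Nic, 1376 in 2DProto3Wu, 1647 in 3DProto1For and 1684 in 3DProto2Xia. The lowest, median and highest tag of 2DCocu were at 1357, 1875 and 2222 CPM and those of 2DMono at 970, 1119 and 1378, so the 2 ranges met at their edge. The ranges of 3DFusi (931 to 2190) and 3DMono (756 to 1416) overlapped.

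**Figure D4:**
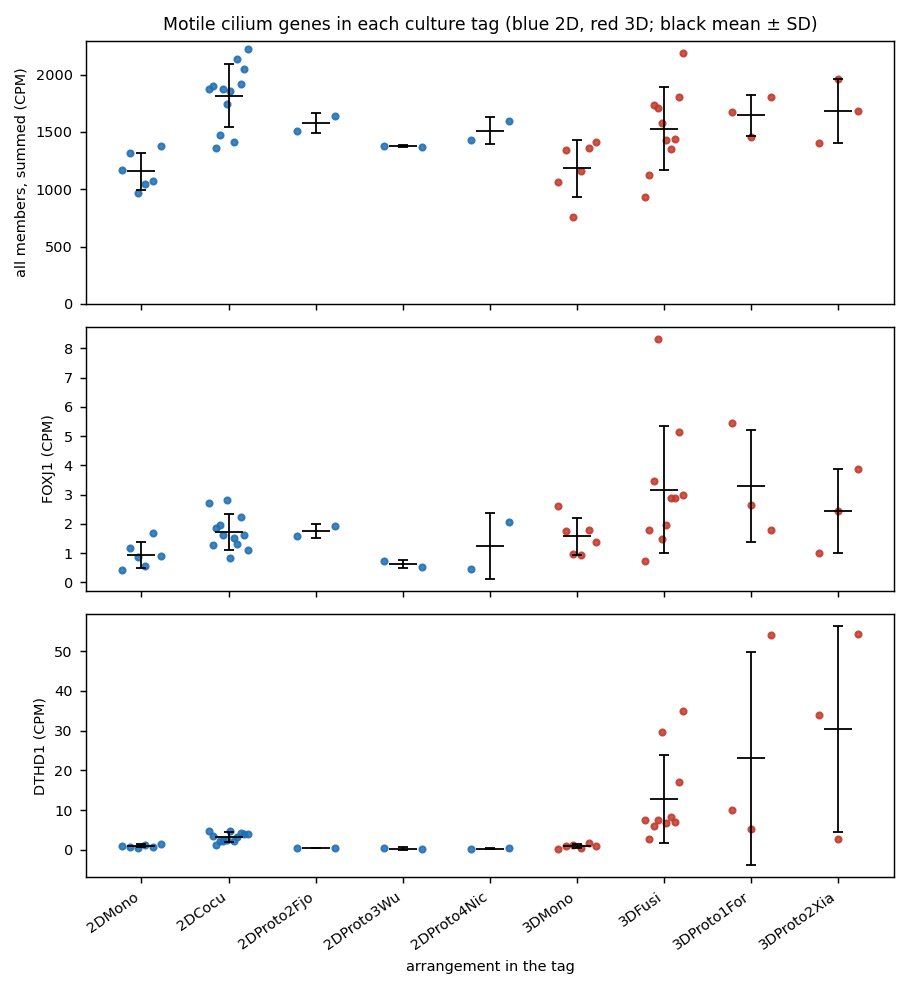
Level of the summed members, FOXJ1 and DTHD1 (vertical axes, CPM) in each of 46 tags (points, blue for 2D and red for 3D) by arrangement, with the mean and SD over tags in black. The summed level is highest in 2DCocu (1818 CPM) while FOXJ1 and DTHD1 spread widest in 3DFusi and the 3DProto tags, where DTHD1 reaches 54.3 CPM.

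In 2-D, the 2DCocu tags held more of most members than the 2DMono tags. Over the 12 tags with a treatment that both have, 34 of 56 members tested were higher in 2DCocu and 1, DNAH17, was lower (-0.45 ± 0.13), where 29.9% of 21467 genes passed and 14.6% were higher (edgeR, treatment as a covariate). DTHD1 led at 1.83 ± 0.30, followed by CFAP46 (1.59 ± 0.14), CFAP299 (1.54), CFAP52 (1.46), CFAP47 (1.37), CFAP77 (1.27), RSPH1 (1.19), CFAP45 (1.17), DNAH2 (1.16), DNAH9 (1.14), CFAP92 (1.02) and CFAP54 (1.02). FOXJ1 (0.35 ± 0.32), PIFO (0.29 ± 0.21) and TPPP3 (1.42 ± 0.53, adjusted p 0.05) did not pass. The floor plate list had a lowest, median and highest tag of 422, 500 and 827 CPM in 2DCocu and of 280.1, 348 and 519 in 2DMono, so the ranges overlap; its part in the difference was not tested. DTHD1 stood at 1.17, 3.36 and 4.82 CPM in all 12 tags of 2DCocu and at 0.548, 0.925 and 1.49 in 2DMono, and CFAP46 at 29.7, 45.4 and 75.9 against 11.4, 19.4 and 34.3. Both ranges overlapped at their edges.

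In 3-D, 5 of 57 members were higher in 3DFusi than in 3DMono over 10 tags and 0 lower, where 1.48% of 23874 genes passed and 1.08% were higher. They were DTHD1 (3.75 ± 0.59), RSPH1 (1.25 ± 0.23), VWA3A (1.14 ± 0.21), CFAP77 (0.88) and CFAP251 (0.82). These calls were not stable: with the tag number as a block, which pairs the 3DFusi tags, 0 members passed, DESeq2 called 20, and no filter on low counts gave 9. Leaving out single tags gave 21 without 3DFusi Vehic tag 1, 11 without 3DFusi AcMor tag 1 and 0 to 3 without each of the other 8. The share of all genes called in these settings is not given here. The counts therefore show how calls moved and not how members stood against all genes. DTHD1 stood at 2.77, 7.52 and 34.98 CPM in all 10 tags of 3DFusi and at 0.283, 1.05 and 1.82 in the 6 of 3DMono, without overlap. FOXJ1 stood at 0.742, 2.90 and 8.31 CPM against 0.945, 1.57 and 2.62 and overlapped. Cells with an SHH count made up 5.26 ± 2.45% (SD, n = 10) in all tags of 3DFusi and 1.45 ± 0.71% (n = 6) in 3DMono. The part of this share in the calls was not tested.

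Between formats members split in direction. From 2DMono to 3DMono 10 of 56 members were higher and 12 lower over 12 tags, where 38% of 21884 genes passed, 17.6% higher and 20.4% lower. From 2DCocu to 3DFusi 16 of 57 were higher and 17 lower over 22 tags, where 49.2% of 22525 genes passed, 27% higher and 22.1% lower. In both pairs the count of higher members lies near the share of all genes. The 2 comparisons share no tag. DNAH5 of the outer arm fell by 1.51 ± 0.12 and 1.698 ± 0.11 and CFAP46 of the central pair by 1.38 ± 0.19 and 2.15 ± 0.22. DNAH14 fell by 1.00 and 1.23 and DNAH7 by 1.07 and 0.76. CFAP53 was higher by 1.14 ± 0.19 and 0.57 ± 0.18, CFAP298, a dynein assembly gene, by 0.78 and 1.02, CFAP73 by 0.82 and 0.89, and CFAP20, of the inner junction of the doublet, by 0.45 and 1.16. DTHD1 was higher from 2DCocu to 3DFusi (1.80 ± 0.32) and stood at -0.00 ± 0.55 from 2DMono to 3DMono. The test of the difference between these gave 1.98 ± 0.66 (adjusted p 0.0606, edgeR) and did not pass.

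The tag values of DNAH5 did not overlap between formats. It stood at 42.5, 66.7 and 81.4 CPM (lowest, median and highest tag) in 2DCocu and at 13.3, 19.96 and 33.8 in 3DFusi, and at 36.4, 44.7 and 66.0 in 2DMono and 12.9, 18.5 and 24.5 in 3DMono. CFAP46 stood at 29.7, 45.4 and 75.9 against 3.81, 10.4 and 19.99 and at 11.4, 19.4 and 34.3 against 4.92, 8.93 and 11.2, the last pair nearly meeting. CFAP20 stood at 9.55, 11.4 and 14.1 in 2DCocu and at 18.3, 26.7 and 35.2 in 3DFusi, without overlap. A test of the difference between the 2 format comparisons called 6 of 57 members, where 9.98% of 23344 genes passed: PIFO (1.23 ± 0.40), CFAP20 (0.88), CFAP251 (0.85), CFAP46 (-1.17 ± 0.30), DNAH6 (-0.89) and CFAP92 (-0.58), each the log2 change from 2DCocu to 3DFusi minus that from 2DMono to 3DMono. CFAP20 was higher and CFAP46 lower in both pairs, each with the larger change in the pair with 3DFusi. PIFO (-0.95 and 0.12) and CFAP251 (-0.72 and 0.14) were lower from 2DMono to 3DMono and did not pass from 2DCocu to 3DFusi, and DNAH6 (0.63 and -0.13) was higher in the first and did not pass in the second. CFAP92 did not pass in the first (0.16) and was lower in the second (-0.39).

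Outside SHH- and TTR-positive cells more members were lower in 3-D. In other cells of 3DFusi against 2DCocu 8 of 56 members were higher and 26 lower, where 48.8% of 22163 genes passed and 22.6% were lower. In other cells of 3DMono against 2DMono 8 of 55 were higher and 24 lower, where 39.8% of 20844 genes passed and 20.5% were lower. CFAP46 fell by 2.90 ± 0.17 and 2.27 ± 0.24, DNAH5 by 2.19 ± 0.12 and 1.82 ± 0.12, CFAP61 by 1.49 ± 0.11 and 1.17 ± 0.14 and CFAP45 by 1.42 and 1.82. RSPH1 stood at 0.01 ± 0.16 over all cells and fell by 0.71 ± 0.18 in other cells between 2DCocu and 3DFusi. DTHD1 stood at 0.57 ± 0.38 in other cells (adjusted p 0.225, edgeR), against 1.80 over all cells, and from 2DMono to 3DMono it fell by 1.19 ± 0.37 in other cells. The share of TTR-positive cells differed widely, at 1.29 ± 0.59% (n = 12) in 2DCocu and 9.27 ± 9.20% (n = 10) in 3DFusi. In 2DMono it was 1.46 ± 1.13% (n = 6) and in 3DMono 11.3 ± 9.48% (n = 6). Cells with an SHH count made up 2.97 ± 1.25% in 2DCocu and 5.26 ± 2.45% in 3DFusi. In 2DMono and 3DMono they made up 1.28 ± 0.65% and 1.45 ± 0.71%. The part of these shares in the differences was not tested.

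**Figure D5:**
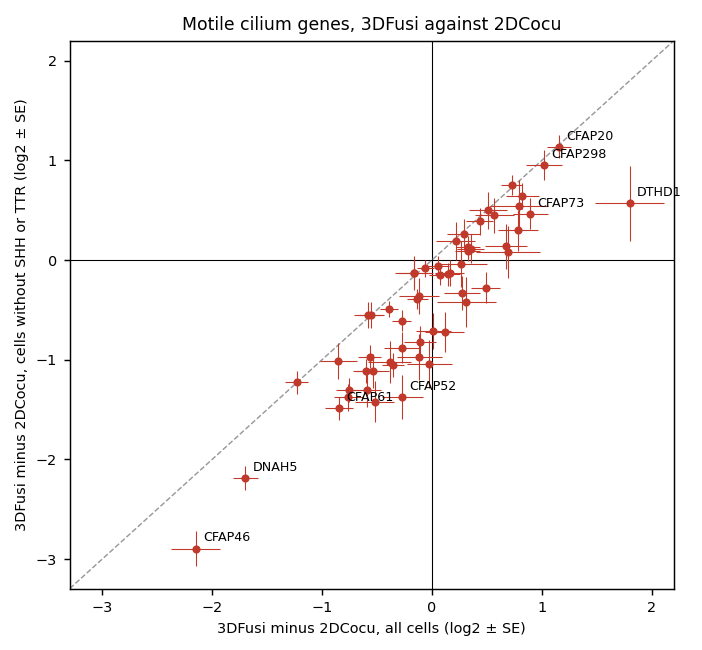
Log2 difference from 2DCocu to 3DFusi (edgeR estimate ± SE) in all cells (horizontal axis) and in cells with neither SHH nor TTR (vertical axis) for each motile cilium gene, with the dashed line marking equal values; the second set of cells is part of the first. Most points lie under the line, DTHD1 at 1.80 and 0.57 and CFAP52 at -0.27 and -1.37.

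The share of cells with a FOXJ1 count was higher in 3DFusi than in 2DCocu, at 4.41 ± 2.23% (SD, n = 10) and 2.53 ± 0.81% (n = 12). The difference averaged over treatments was 1.88 points (two-sided exact permutation test within treatments, p = 0.00955, 0.0191 adjusted over 2 tests), and in cells thinned to 5000 counts it was 0.70 points. It did not pass without called doublets (1.40 points, adjusted permutation p 0.0994). The test takes tags of the same number as separate, though in 3DFusi such tags deviated together, and no paired form of it was run. Lowest, median and highest tags were at 2.20, 3.82 and 9.05% in 3DFusi and at 1.39, 2.41 and 3.98% in 2DCocu, and overlapped. Between 3DMono (1.98 ± 0.50%, n = 6) and 2DMono (2.08 ± 1.55%, n = 6) the difference was -0.10 points (exact permutation p = 0.926), and its sign changed with single tags left out.

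Treatment was compared with Vehic within each arrangement, the purpose named in the series' design text. In 2DCocu, 7 of 56 members were lower with AcCoc and 0 higher, where 6.08% of 21053 genes passed, 3.6% higher and 2.48% lower (edgeR). DNAH9 stood at 45.1, 47.6, 27.7 and 34.4 CPM in the 4 AcCoc tags and at 61.7, 53.2, 58.2 and 56.4 in the 4 Vehic tags (-0.53 ± 0.14). CFAP46 stood at 45.7, 41.6, 29.7 and 32.5 against 73.2, 50.1, 75.9 and 57.2 (-0.75 ± 0.16). CCDC40 stood at 44.6, 55.5, 45.8 and 51.6 against 68.4, 63.9, 70.1 and 58.6 (-0.37 ± 0.10). None of the 3 overlapped. The others were CFAP70 (-0.61), CFAP77 (-0.68), CFAP92 (-0.40) and VWA3A (-0.53).

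The AcCoc calls depended on single tags: 0 members passed without AcCoc tag 3 or without Vehic tag 3 and 1 without AcCoc tag 4 or Vehic tag 1. The share of all genes called with these tags left out is not given here. The AcCoc tags also held fewer SHH-positive cells, 1.75 ± 0.24% against 4.26 ± 1.08% in Vehic (SD, n = 4 each), whose part in the result was not tested. The summed level was 1878, 1904, 1357 and 1469 CPM in the AcCoc tags and 2133, 1919, 2053 and 2222 in the Vehic tags, the highest and lowest of which nearly met. A test of whether AcCoc acted differently in 3DFusi than in 2DCocu called 0 of 57 members (1 at an unadjusted p under 0.05, edgeR), where 0.00425% of 23515 genes passed.

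No member passed in the other 7 treatment comparisons (edgeR). With AcMor in 2DCocu 0 of 56 passed (13 at an unadjusted p under 0.05, beside 3025 of 21053 genes, and 4 by DESeq2), where 0.978% of genes passed, 0.689% higher. In the remaining 6 comparisons 0% of genes passed. In 3DFusi 11 of 57 members with AcCoc and 1 with AcMor were at an unadjusted p under 0.05, beside 398 and 179 of 23715 genes. In 2DMono these were 2 of 53 members with AcDop and 9 with AcMor, beside 472 and 1256 of 19421 genes. In 3DMono they were 0 of 56 members with AcDop and 17 with AcMor, beside 741 and 1927 of 22119 genes. DESeq2 called 1 member with AcMor in 3DMono and 0 in the remaining 5. The share of all genes that DESeq2 called in the treatment comparisons is not given here.

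Members differed between the 3 protocol tags in 2-D, where 33 of 57 passed a joint test over 6 tags against 38.9% of 25669 genes. DNAH2 stood at 69.0 and 46.5 CPM in the 2 tags of 2DProto2Fjo, 34.5 and 38.1 in 2DProto3Wu and 6.64 and 8.43 in 2DProto4Nic, in order without overlap. PIFO stood at 8.49 and 9.22 in 2DProto2Fjo, 1.05 and 0.843 in 2DProto3Wu and 2.12 and 2.57 in 2DProto4Nic. FOXJ1 (adjusted p 0.0889, edgeR) did not pass. In 2DProto2Fjo, 2DProto3Wu and 2DProto4Nic a mean of 19.1, 2.13 and 12.7% of cells had a TTR count. With an SHH count these were 1.71, 15.8 and 1.23%. The part of these shares in the differences was not tested. Between 3DProto1For and 3DProto2Xia 0 of 55 members passed (2 at an unadjusted p under 0.05, beside 1603 of 20608 genes, and 0 by DESeq2), where 0% of genes did. DTHD1 varied there by tag, at 9.97, 5.15 and 53.9 CPM in 3DProto1For and 34.0, 2.86 and 54.3 in 3DProto2Xia.

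Other genes of the ciliary machinery, 85 in 10 lists, were counted in the same fits. In SHH-positive cells 35 of 73 tested were higher and 4 lower over the 27 tags, where 5.77% of all genes were higher. In TTR-positive cells 42 of 75 were higher and 4 lower, where 11.6% were higher. Of all genes 1678 of 18468 were lower in SHH-positive and 2874 of 18925 in TTR-positive cells. The SHH-positive difference was larger in 3DFusi than in 2DCocu for 5 of 5 central pair genes, 6 of 7 intermediate and light chains, 4 of 7 radial spoke genes and 4 of 6 doublet inner proteins and tektins (edgeR interaction, 3.18% of all genes in that direction). It was so for 3 of 6 nexin-dynein, 3 of 9 assembly factor, 1 of 2 docking, 2 of 6 RFX, 1 of 14 intraflagellar transport and 0 of 7 multiciliation genes. All 5 central pair genes tested were higher in SHH-positive cells, among them HYDIN (0.91 ± 0.21), SPAG6 (1.43 ± 0.33) and SPAG17 (0.90), and 4 of 5 in TTR-positive cells, SPAG6 by 2.22 ± 0.19 and HYDIN by 1.38 ± 0.17. Of the intermediate and light chains of dynein 7 of 8 were higher in SHH-positive and 6 of 8 in TTR-positive cells. Intraflagellar transport, which both motile and immotile cilia need, had 3 of 14 and 7 of 14 higher.

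The regulators of multiciliation, which lead a cell to build many cilia, were 0 higher and 2 lower of 7 tested in SHH-positive cells, FOXN4 at -0.95 ± 0.17 and MYB at -0.57 ± 0.18. In TTR-positive cells 4 of 8 were higher: GMNC (2.72 ± 0.50), which acts at the top of that programme, CDC20B (1.21 ± 0.27), a marker of cells that amplify centrioles, TP73 (0.58) and DEUP1 (0.49). GMNC stood at 0.820 CPM in SHH-positive, 8.98 in TTR-positive and 1.46 in other cells, and at 2.27 and 18.4 in the highest SHH and TTR bins. MCIDAS and CCNO, next in the programme, stood at 1.15 and 1.99 CPM in the highest TTR bin and at 0.273 and 0 in the highest SHH bin. These values of MCIDAS and CCNO are near the floor and come from 208 and 85 pooled cells, so they are a description only. In the direct test of SHH-positive against TTR-positive cells 5 genes of the list were tested, of which 0 were higher and 1 lower, CDC20B (-1.39 ± 0.33, adjusted p 0.033, edgeR). Of the 6 RFX genes tested, 1 was higher in SHH-positive cells, RFX2, a partner of FOXJ1 (0.45 ± 0.11), and 1 lower, RFX7 (-0.14 ± 0.04). In TTR-positive cells RFX2 (0.47 ± 0.08) and RFX3 (0.14 ± 0.04) were higher and RFX4 (-0.55 ± 0.11) and RFX7 (-0.17 ± 0.03) lower. Over all genes 1678 of 18468 were lower in SHH-positive cells, 2874 of 18925 in TTR-positive cells and 188 of 12310 in the direct test.

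Among the genes whose log2 level followed the summed members most closely across the 46 tags were FANK1 (Pearson r 0.917), SPATA17 (0.904), EFCAB6 (0.885), HYDIN (0.885), IQUB (0.876), DNAI4 (0.860), DNAI3 (0.858), ZNF487 (0.834) and WDR93 (0.825), of 13624 genes with a mean of at least 5 CPM. HYDIN is a central pair gene, and DNAI3 and DNAI4 encode dynein intermediate chains. The tags share sublibraries and differ in arrangement, so these values are a description. Pairs of members among themselves had a median r of 0.319 over 1596 pairs.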

How the data were processed

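Single-cell RNA libraries of 46 culture tags were deposited as 8 sublibraries. Per the submitters' processing notes the authors used Salmon 1.7.0 with alevin, Seurat 4.1.1 and build hg38. The deposited values are expected counts per gene and cell, per the file values. The lowest number of genes in a deposited cell was 1006. The annotation is not given in the sources used here, nor are strand and the counting of unspliced reads, so reads of overlapping genes cannot be told apart. Tags were read from the deposited cell names.

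Expected counts were summed per tag, or per tag and class where both classes held at least 20 cells, rounded and tested with edgeR 4.0.16 in R 4.3.3 (robust quasi-likelihood, filterByExpr, TMM, Benjamini-Hochberg over all genes tested, threshold 0.05). Fits between arrangements carried treatment as a covariate, and class fits carried the tag as a block. SHH and TTR, which define the classes, were not tested. Shares were tested by exact permutation of tags within treatments (scipy 1.17.1), and intervals are exact binomial at 95% and cover counting error only. A depth of 3624668 to 58777178 counts per tag sets the precision. Scrublet called 0 cells as doublets, so cells were scored against simulated pairs with a threshold of 0.588 set from the simulated scores, which 69.5% of simulated pairs passed. It called 4598 cells (10.5%), which were kept. The fit was tested on simulated counts: of genes changed 2-fold 71% were recovered in the comparison of 3DMono with 2DMono (21880 genes).

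The members and the gene lists were chosen with earlier results of these data known. Of DNAH and CFAP genes the 10 highest and the 3 lowest of a comparison are named, and others where their role is described; in some comparisons fewer are named, chosen after their values were seen. Genes whose level followed the members were ranked by Pearson correlation, and 1 of the 10 highest is not reported here. Alternatives were DESeq2 1.42.0, no filter on low counts, single tags left out, Vehic tags alone, the tag number as a block, no doublets, other class limits, tags with at least 10 cells per class and cells thinned to 5000 counts. Fits of single arrangements, the bins of SHH and TTR counts, the limit of 10 members per cell and the promoter search were added after seeing the data. Tag numbers pair the 3DFusi tags, where the deviations of same-numbered tags correlated at 0.149 to 0.662 in 9 pairs, a hint from the data and not from the labels. In 3DMono all 6 pairs lay above 0 (0.0708 to 0.308) but not all over the limit of 0.1, and in 2DCocu (-0.437 to 0.137) and 2DMono (-0.15 to 0.195) some lay below 0.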

Additional observations from a re-analysis of the deposited data

Results flagged for a closer look

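In 62 checks of groups of 4 tags, 3 single values lay far from the rest, where chance gives about 1 in 20. DTHD1 stood at 4.752 CPM in 2DCocu AcMor tag 3 and between 2.25 and 2.42 in the other AcMor tags. CCDC39 stood at 55.05 CPM in 2DCocu AcCoc tag 2 and between 35.2 and 37.7 in the rest, and TPPP3 at 0.9862 CPM in AcCoc tag 1 and between 0.885 and 0.901 in the rest, a narrow range.

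The change from 2-D to 3-D differed between the pair 2DCocu and 3DFusi and the pair 2DMono and 3DMono for 6 of 57 members, near the 9.98% of all genes that passed (edgeR interaction, log2). The differences were 1.234 for PIFO, 0.8836 for CFAP20, 0.8537 for CFAP251, -0.5816 for CFAP92, -0.8942 for DNAH6 and -1.171 for CFAP46.

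The difference between SHH-positive and other cells was unlike in 3DFusi and 2DCocu for 38 members (edgeR interaction, 3DFusi minus 2DCocu, log2). Among the genes named singly it was 3.874 for DTHD1, 2.559 for PIFO, 2.135 for VWA3A, 2.133 for RSPH1, 1.621 for FOXJ1, 1.121 for RSPH4A, 1.082 for CCDC39 and 0.9559 for CCDC40. The dynein heavy chains gave 2.362 for DNAH9, 2.082 for DNAH12, 2.061 for DNAH5, 1.922 for DNAH11, 1.675 for DNAH7, 1.329 for DNAH2, 0.9336 for DNAH6 and -0.8154 for DNAH14, the only negative value. CFAP genes above 2 were CFAP52 at 3.466, CFAP74 at 3.093, CFAP299 at 2.823, CFAP61 at 2.464, CFAP45 at 2.319, CFAP47 at 2.278, CFAP43 at 2.216, CFAP57 at 2.166 and CFAP221 at 2.071. Those between 1.4 and 2 were CFAP77 at 1.927, CFAP54 at 1.825, CFAP65 at 1.814, CFAP99 at 1.8, CFAP46 at 1.777, CFAP251 at 1.715, CFAP70 at 1.588 and CFAP69 at 1.41. The lowest were CFAP53 at 1.263, CFAP100 at 1.125, CFAP44 at 1.122, CFAP91 at 1.004 and CFAP92 at 0.5633.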

How the results depend on the processing

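Counts of members called by class for TTR-positive against other cells (42 of 55) were 39 without a filter, 41 by DESeq2, 41 without doublets, 42 from a count of 2 and 41 to 43 with single tags left out, but 28 in 3DFusi alone, 37 in 3DMono alone, 37 without 3DMono and 39 without 3DFusi. For SHH-positive cells (39 of 53) the count was 38 by DESeq2, without doublets and from a count of 2, 34 without a filter and 38 to 40 with single tags left out, but 9 in 2DCocu alone and 3 without 3DFusi. In 2DCocu alone the difference turned negative for CCDC39 (-0.0534), CFAP251 (-0.159), CFAP53 (-0.326), CFAP61 (-0.0263) and CFAP74 (-0.235), and without 3DFusi for CCDC39 (-0.00207), CFAP300 (-0.0166), CFAP44 (-0.00045), CFAP74 (-0.155) and PIFO (-0.206). SHH-positive against TTR-positive cells gave 1 call, lower, and 1, lower, by DESeq2. The count was 1, higher, in tags with at least 10 cells per class, 3 without doublets and 20 from a count of 2. It was 10 without a filter, where errors of several members were much smaller than in the filtered fit. When thinned it was 0, with 18 members left to test, and with single tags left out it was 0 to 2.

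The counts in this section are of members only, without the share of all genes called in the same setting. They show how calls moved with the setting and not how members stood against all genes. In Vehic tags alone, with fewer samples, 11 members were called between 2DMono and 3DMono and 20 between 2DCocu and 3DFusi. In other cells of the mono pair 18 were called. From 3DMono to 3DFusi the count of 5 became 20 by DESeq2 and 9 without a filter, and 0 to 21 with single tags left out. The counts for AcCoc in 2DCocu (7) ranged from 0 to 9 with single tags left out, those for AcMor in 2DCocu (0) from 0 to 1, with 4 by DESeq2 and 2 without a filter, and those for AcMor in 3DMono (0) from 0 to 3, with 1 by DESeq2 and 7 without a filter. With the tag number as a replicate block the counts were 29 for the mono pair, 31 for 2DCocu and 3DFusi, 30 for 2DMono and 2DCocu, 0 for 3DMono and 3DFusi and 4 for AcCoc in 2DCocu, and 0 for every other treatment.

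The FOXJ1 share between 3DMono and 2DMono (-0.0955 points) was 0.0411 when thinned and 0.217 from 2 counts, and -0.546 to 0.355 with single tags left out. Between 3DFusi and 2DCocu (1.88 points) it was 1.40 without doublets (adjusted permutation p 0.0994) and 1.36 to 2.11 with single tags left out. In Vehic tags it was 3.24 (adjusted permutation p 0.0571). That is the lowest value that the 35 possible splits of these tags allow, so that test could not pass. Except where fewer genes or samples entered, the cause was not tested. Low counts limit FOXJ1, TPPP3 and CFAP206, at 1.93, 0.949 and 0.617 CPM over all cells.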

Other observations

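In cells with neither SHH nor TTR, those with a FOXJ1 count also held more of most other members than those without, over 35 tags. The level was 5.25-fold for CFAP52 (higher in 33 of 35 tags), 5.13-fold for DTHD1 (25 of 35), 4.42-fold for PIFO (30 of 35) and 3.97-fold for VWA3A (34 of 35). It was lower for DNAH8 (0.752-fold, higher in 12 of 35), CFAP161 (0.805-fold, 11 of 35) and DNAH17 (0.964-fold, 14 of 35), and about level for DNAH14 (1.05-fold, 20 of 35) and CFAP58 (1.004-fold, 17 of 35). Such cells with at least 10 members in 5000 counts had summed marker levels of 849 against 265 CPM for the floor plate list, 371 against 93.6 for choroid plexus, 776 against 382 for astrocytes and 624 against 2001 for neurons, set beside other cells with fewer members. The remaining lists stood at 528 against 347 for progenitors or radial glia, 322 against 1097 for mesenchymal and 212 against 425 for cycling. Epithelial stood at 10.4 against 7.27 and skeletal muscle at 12.5 against 32.1. These are descriptions, with depth and arrangement not matched.

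Between the 8 sublibraries, which share the tags, the summed members ranged from 1868 to 2819 CPM in SHH-positive, 1756 to 2335 in TTR-positive and 1257 to 1309 in other cells.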
